A study of Gallus gallus with 6 samples.

Results

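Genes of mitosis and of the kinetochore were followed in chick forelimb bud tissue after exposure to a fibroblast growth factor. The set was a list of 53 gene names in 9 roles, from cyclins and mitotic kinases to the proteins that split the cell. A member was measured where at least 1 probe set of the array carried its name as its only gene symbol, and the probe set with the highest mean over the 6 arrays stood for the gene. By this rule 44 of the 53 members were measured, among 13009 genes in all. The 9 members with no such probe set were ESPL1, AURKA, CCNB2, PTTG1, CENPA, SPC24, UBE2C, KIF4A and NCAPH, so the centromeric histone, Aurora A and separase were not analysed here.

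In cells that enter division, CDK1 bound to A- and B-type cyclins drives the cell into mitosis, condensin compacts the chromosomes, and kinetochores assemble on the centromeres to catch spindle microtubules. The spindle assembly checkpoint holds back CDC20 and the anaphase-promoting complex until the chromosomes are attached, after which the sisters part and the central spindle directs cytokinesis. Transcripts of many of these genes peak in G2 and M phase, so in a tissue their level follows the share of dividing cells as well as the transcript content of each cell. Distal limb bud mesenchyme, which lies under the FGF-secreting apical ectodermal ridge, is known as a proliferating tissue, and cells leave the cycle as cartilage and muscle differentiate.

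Both groups were chick embryos from fertile eggs whose forelimb bud received a heparin acrylic bead in the posterior mesoderm at stage HH23, about 500 µm from the tip. In the FGF2 group the bead had been soaked in recombinant human FGF2 and in the PBS group in phosphate-buffered saline, the vehicle. Tissue around the bead was taken 24 h later, at stage HH25, and hybridised to Affymetrix Chicken Genome arrays, 3 for FGF2 and 3 for PBS. RNA of several embryos went into each array as a pool, and per the study's methods the pools came from experiments on different days, so that a p-value here measures the spread between pools and not between embryos. Values are on a log2 scale, where a difference of 1 is a doubling, and an SE is given after each difference. Because the samples are bulk tissue around a bead, a larger share of dividing cells and more transcript per cell cannot be told apart.

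The tissue carried the markers of its label: 12 of 12 limb mesenchyme genes lay above 3.57, the level below which 95% of 746 probe sets for non-chicken names fell. The forelimb factor TBX5 averaged 11.23, and of the hindlimb factors TBX4 averaged 2.33 and PITX1 7.20. All 44 members lay above that background, from SPC25 at 6.61 to CDK1 at 13.80, with a median of 11.38.

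At 24 h, no member passed the test at an adjusted p under 0.05 (limma's moderated test, two-sided, Benjamini-Hochberg adjustment over 38439 probe sets), where 4 probe sets, or 0.0104% of all, did. The lowest adjusted p among the members was 0.309, for SMC4. By direction, 41 of the 44 members had a higher mean in FGF2 tissue, and 3 (SPC25, CENPF and CENPP) had a lower one. The median difference over the members was 0.17 on the log2 scale, or 1.12-fold, and the quartiles were 0.08 and 0.21. Single members lay between -0.15 and 0.35, and the median SE of a member was 0.08. The median over all 13009 genes was -0.01, with 45.6% positive, and over the 2663 other genes in the middle of the members' range of level (10.12 to 12.09) it was 0.03, with 59.2% positive, against 93.2% of the members. These are descriptions of a list, for which no test was made. The members were read from the same arrays and many rose and fell together, so they are not independent and do not count as replicates.

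Without adjustment for the number of probe sets, 12 members were higher in FGF2 tissue at p under 0.05 and none was lower. Among all genes 7.77% were higher by that rule and 4.59% lower, and among the middle-range genes 10.9% were higher and 5.71% lower. In 12 members, or 27.3%, every FGF2 array lay above every PBS array, and in none did every FGF2 array lie below. The same order held for 9.13% of all genes and 12.9% of the middle-range genes, and the opposite order for 6.84% and 7.06%. With 3 arrays against 3, an exact permutation test of a single gene cannot give a p under 0.1.

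**Figure D1:**
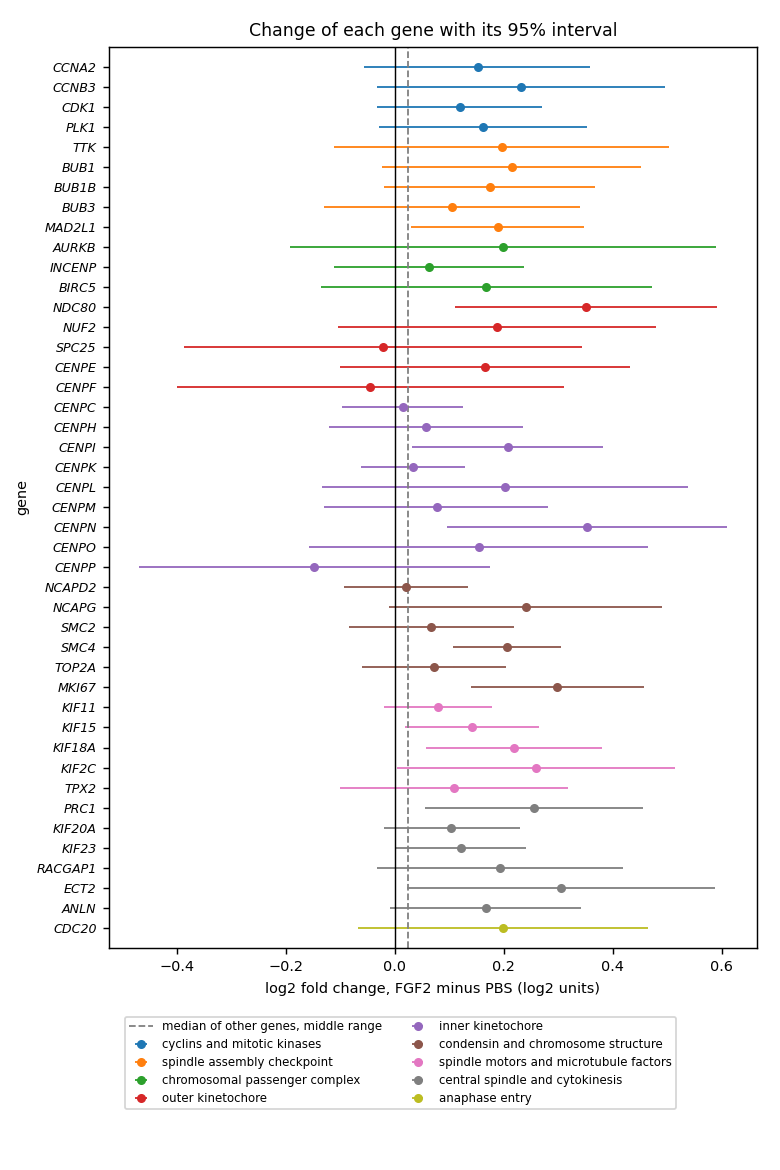
Difference in log2 level, FGF2 minus PBS, for the 44 measured mitosis and kinetochore genes, grouped by role, with points for the limma estimate and bars for its 95% interval (3 arrays a group) and a dashed line at 0.03, the median of the middle-range genes. Of the 44 points 41 lie to the right of 0, the median is 0.17, and most bars cross 0.

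The members were not all dim or all bright, and their difference did not climb or decline steadily with brightness. The 4 members with a mean level between 8 and 9 had a median difference of 0.12, the 5 between 9 and 10 had 0.26, the 6 between 10 and 11 had 0.20, the 16 between 11 and 12 had 0.13, the 8 between 12 and 13 had 0.17 and the 4 between 13 and 14 had 0.11. The other genes in these bins had medians from 0.01 to 0.05.

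**Figure D2:**
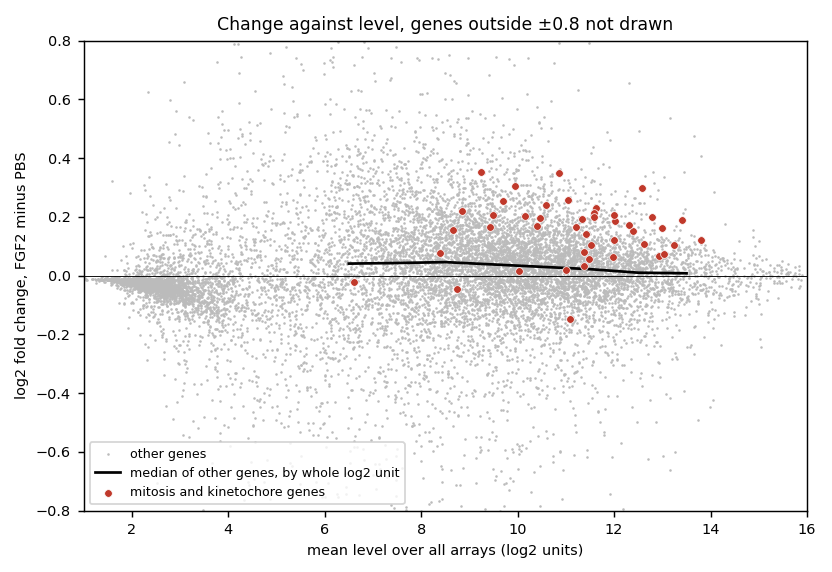
Difference in log2 level, FGF2 minus PBS, against the mean log2 level over 6 arrays, for other genes (grey points, those outside ±0.8 not drawn) and the 44 members (red points), with a black line for the median of the other genes in each whole unit of level. Members at every level above 8 lie mostly above that median, which stays between 0.01 and 0.05 in the bins that hold them.

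The difference was carried unequally by the arrays. Setting each member against its mean in PBS tissue, the median over the members was 0.19, 0.23 and 0.05 in FGF2 replicates 1, 2 and 3, against -0.08, 0.09 and -0.01 in PBS replicates 1, 2 and 3. FGF2 replicate 3 therefore lay below PBS replicate 2. Of the 9 pairs of an FGF2 with a PBS array, 8 gave a positive median, the largest being 0.31 for FGF2 replicate 2 against PBS replicate 1, while FGF2 replicate 3 against PBS replicate 2 gave -0.02, with 17 of 44 members higher. FGF2 replicate 1 exceeded PBS replicate 3 in 44 of 44 members. The highest value of a member fell on FGF2 replicate 2 in 21 members and on FGF2 replicate 1 in 16, and the lowest fell on PBS replicate 1 in 27. The middle-range genes had medians of 0.03, 0.04 and 0.01 in FGF2 replicates 1 to 3, against -0.02, 0.01 and 0.01 in PBS replicates 1 to 3.

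**Figure D3:**
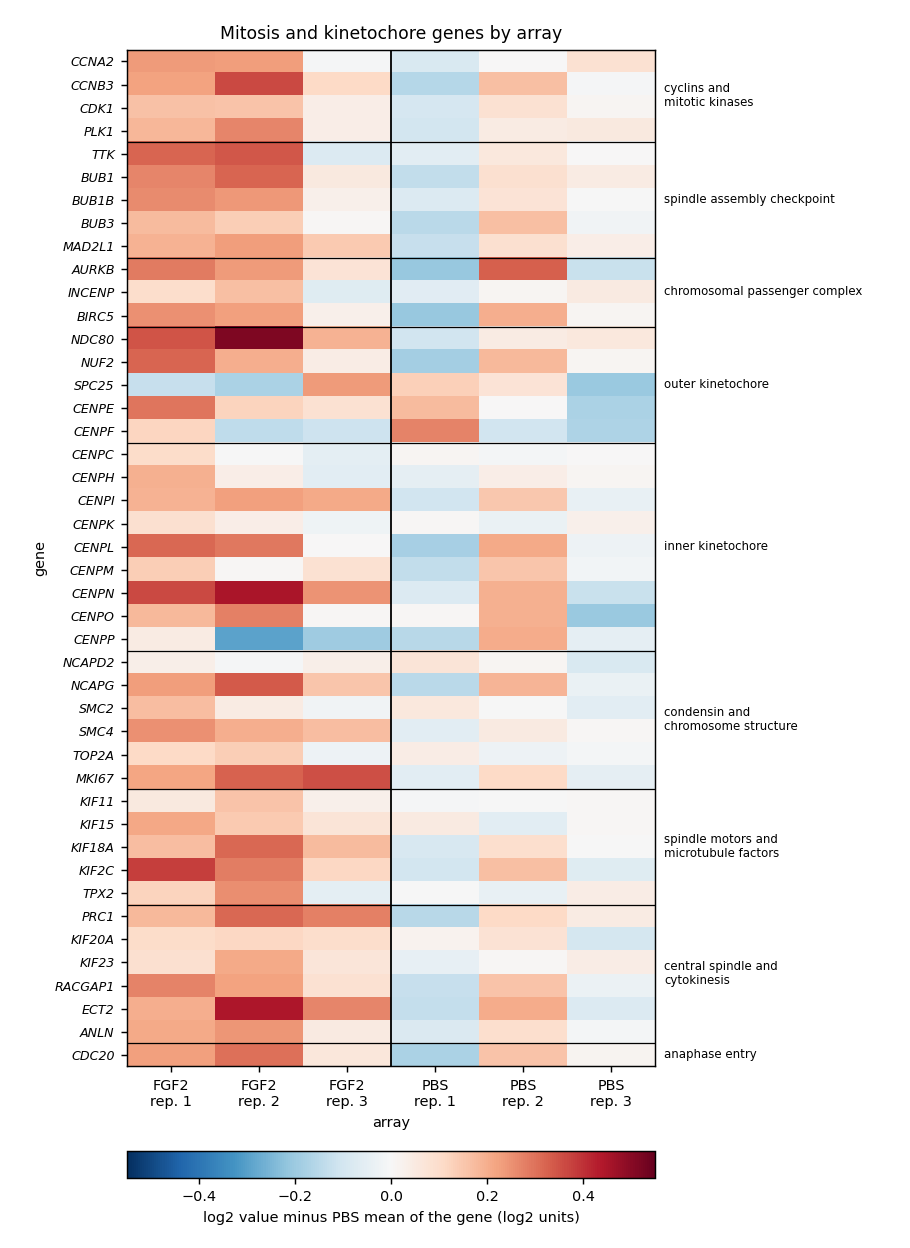
Each row is a measured mitosis or kinetochore gene and each column an array; colour gives the log2 value minus the gene's mean in PBS tissue, from blue (lower) to red (higher). FGF2 replicates 1 and 2 are red in nearly every row, FGF2 replicate 3 is pale in most rows, and PBS replicate 1 is blue in most.

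The same arrays stood apart in the markers of differentiating tissues. In 15 of 16 cartilage genes measured, the median against the PBS mean was -0.54, -0.54 and 0.01 in FGF2 replicates 1 to 3, against 0.38, -0.41 and 0.06 in PBS replicates 1 to 3, and in 18 of 20 muscle genes it was -0.57, -0.82 and -0.03, against 0.20, -0.24 and 0.05. Their summed linear level ran from 40000 to 59000 in FGF2 tissue and from 42700 to 79300 in PBS tissue for cartilage, and from 51100 to 70700 in FGF2 tissue and from 66600 to 77500 in PBS tissue for muscle. The arrays with the higher mitotic levels in each group, FGF2 replicates 1 and 2 and PBS replicate 2, were thus those with the lower cartilage and muscle levels. Of the genes measured, 14 of 15 for cartilage and 18 of 18 for muscle lay above the background level, among them COL2A1, the main cartilage collagen, at a mean of 13.99, and MYOD1, the myogenic factor, at 12.46. Macrophage genes (14 of 15 measured) had medians of 0.60, 0.71 and 0.41 in FGF2 replicates 1 to 3, against -0.03, 0.05 and -0.01 in PBS replicates 1 to 3, with a summed level of 3840 to 4660 in FGF2 tissue and 2400 to 2630 in PBS tissue, and 9 of the 14 lay above the background level, with CSF1R, the macrophage growth factor receptor, at a mean of 8.53 and PTPRC, the pan-leukocyte marker, at 3.20. Genes of red blood cells (9 of 18 measured, 7 above the background level) had medians of 0.00, 0.075 and -0.107 in FGF2 replicates 1 to 3. In PBS replicates 1 to 3 their medians were -0.168, 0.014 and 0.177, so that PBS replicate 1 and FGF2 replicate 3 were the lowest arrays. The part of these markers in the mitotic difference was not tested. FGF2 replicate 3 was the FGF2 array with the lowest member median and PBS replicate 2 the PBS array with the highest. Leaving both out, a choice made after the values were seen, was thus bound to widen the difference. The median over the members was then 0.25 and 28 were higher at unadjusted p under 0.05, with 0 at adjusted p under 0.05. In that fit 7.23% of all probe sets were higher and 4.52% lower at unadjusted p under 0.05, against 5.6% and 3.33% with all 6 arrays, and their median was -0.01.

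**Figure D4:**
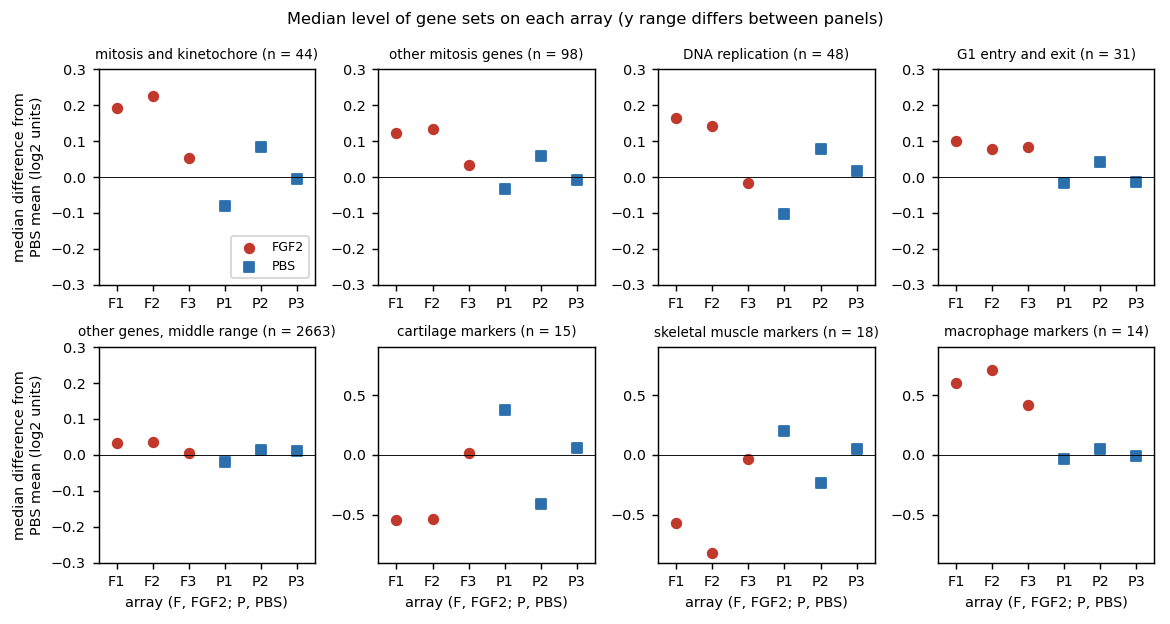
Median over a gene list of the log2 value minus each gene's PBS mean, 1 point an array, FGF2 arrays (F, red) left of PBS arrays (P, blue), for the mitosis members, related cell cycle lists, the middle-range genes and the cartilage, muscle and macrophage markers; the y range differs between panels. For the members, FGF2 replicates 1 and 2 lie at 0.19 and 0.23 and FGF2 replicate 3 at 0.05, below PBS replicate 2 at 0.09.

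Among the cyclins and mitotic kinases, 4 of 6 members were measured and all 4 had a higher mean in FGF2 tissue, with a median of 0.16 and none at unadjusted p under 0.05. CDK1, the kinase that drives entry into mitosis and the brightest member, read 13.90, 13.90 and 13.78 in FGF2 tissue, against 13.65, 13.82 and 13.75 in PBS tissue, a difference of 0.12 ± 0.06 (adjusted p = 0.643, limma). The 2 highest CDK1 values were in FGF2 replicates 1 and 2, while FGF2 replicate 3 lay below PBS replicate 2, so that the groups overlapped. CCNB3, a B-type cyclin, differed by 0.23 ± 0.11, PLK1, the Polo kinase of centrosome maturation and kinetochore assembly, by 0.16 ± 0.08, and CCNA2, the cyclin of S phase and G2, by 0.15 ± 0.08. In each of these 3 the lowest array was PBS replicate 1.

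All 5 members of the spindle assembly checkpoint were measured, with differences from 0.11 to 0.22 and a median of 0.19. MAD2L1, which encodes the MAD2 protein that sequesters CDC20, read 13.50, 13.53 and 13.45 in FGF2 tissue, against 13.18, 13.39 and 13.34 in PBS tissue, a difference of 0.19 ± 0.06 or 1.14-fold (adjusted p = 0.506, limma). Every FGF2 array lay above every PBS array for MAD2L1, with FGF2 replicate 3 and PBS replicate 2 the nearest pair. The kinase BUB1, which recruits other checkpoint proteins to the kinetochore, differed by 0.22 ± 0.09, BUB1B, or BubR1, by 0.17 ± 0.08, and BUB3, their partner, by 0.11 ± 0.09. TTK, the MPS1 kinase that starts checkpoint signalling, read 10.69, 10.71 and 10.29 in FGF2 tissue, against 10.31, 10.42 and 10.37 in PBS tissue. FGF2 replicates 1 and 2 were the highest arrays for TTK and FGF2 replicate 3 was the lowest.

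The chromosomal passenger complex, which corrects faulty attachments and later moves to the central spindle, had 3 of 3 members measured, with a median of 0.17. Its kinase AURKB read 11.78, 11.72 and 11.57 in FGF2 tissue, against 11.28, 11.82 and 11.37 in PBS tissue, a difference of 0.20 ± 0.16. The highest AURKB value was PBS replicate 2 and the lowest PBS replicate 1, so that the spread within PBS tissue (SD 0.29) was larger than the difference. BIRC5, or survivin, differed by 0.17 ± 0.12. INCENP, the scaffold and the brightest of the 3, differed by 0.06 ± 0.07.

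In the outer kinetochore, which binds microtubules, 5 of 6 members were measured and 3 had a higher mean in FGF2 tissue. NDC80, the microtubule-binding subunit after which the complex is named, read 11.02, 11.19 and 10.87 in FGF2 tissue, against 10.57, 10.72 and 10.73 in PBS tissue, a difference of 0.35 ± 0.10 or 1.27-fold (adjusted p = 0.44, limma). NDC80 had the second largest difference of all members, and its groups did not overlap at its brightest probe set but did at the other. NUF2, its partner in the same complex, read 12.25, 12.13 and 11.97 in FGF2 tissue, against 11.74, 12.10 and 11.94 in PBS tissue, a difference of 0.19 ± 0.12, with FGF2 replicate 3 below PBS replicate 2. SPC25, which joins that complex to the inner kinetochore, was the dimmest member and read 6.49, 6.45 and 6.85 in FGF2 tissue, against 6.75, 6.70 and 6.41 in PBS tissue, a difference of -0.02 ± 0.15. It ran opposite to most members, with FGF2 replicate 3 the highest array and FGF2 replicate 2 among the lower ones. CENPE, the kinesin that carries chromosomes towards the spindle equator, differed by 0.17 ± 0.11. CENPF, a large protein of the outer kinetochore in late G2 and M, read 8.89, 8.63 and 8.65 in FGF2 tissue, against 9.04, 8.66 and 8.60 in PBS tissue, a difference of -0.05 ± 0.14, and its highest array was PBS replicate 1.

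The inner kinetochore, whose proteins sit on centromeric chromatin through most of the cell cycle, had the lowest median of the roles with more than 1 measured member, 0.08 over 9 of 10 members, 8 of them with a higher mean in FGF2 tissue. CENPN, which recognises the centromeric nucleosome, read 9.43, 9.51 and 9.31 in FGF2 tissue, against 8.99, 9.26 and 8.94 in PBS tissue, a difference of 0.35 ± 0.10 or 1.28-fold (adjusted p = 0.461, limma), the largest of all members. CENPI, of the subcomplex that also holds CENPH, CENPK and CENPM, read 9.58, 9.61 and 9.59 in FGF2 tissue, against 9.28, 9.53 and 9.35 in PBS tissue, a difference of 0.21 ± 0.07 (adjusted p = 0.51, limma). At the brightest probe set of both genes every FGF2 array was above every PBS array. The next CENPN probe set, at a mean level of 6.86, gave 0.04 ± 0.15 with overlapping groups. The other members of the CENPI subcomplex gave smaller values, 0.06 ± 0.07 for CENPH, 0.03 ± 0.04 for CENPK and 0.08 ± 0.08 for CENPM, each with overlapping groups.

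CENPC, the platform that links centromeric nucleosomes to the outer kinetochore, read 10.12, 10.02 and 9.97 in FGF2 tissue, against 10.03, 10.01 and 10.02 in PBS tissue, a difference of 0.02 ± 0.04. Its PBS arrays were nearly equal (SD 0.009) and its FGF2 arrays on both sides of them. CENPL, which pairs with CENPN, differed by 0.20 ± 0.13, and CENPO by 0.15 ± 0.12. CENPP, of the same subcomplex as CENPO, had the lowest difference of all members and read 11.20, 10.86 and 10.95 in FGF2 tissue, against 11.00, 11.35 and 11.10 in PBS tissue, a difference of -0.15 ± 0.13 (adjusted p = 0.643, limma). FGF2 replicate 2 was the lowest CENPP array and PBS replicate 2 the highest, with the others between them.

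Of the condensin and chromosome structure genes, 6 of 7 were measured and all 6 had a higher mean in FGF2 tissue (median 0.14). SMC4, a core ATPase of condensin, read 12.14, 12.09 and 12.07 in FGF2 tissue, against 11.84, 11.95 and 11.90 in PBS tissue, a difference of 0.21 ± 0.04 or 1.15-fold (adjusted p = 0.309, limma). MKI67, the Ki-67 protein that coats mitotic chromosomes and serves as a marker of cycling cells, read 12.64, 12.75 and 12.78 in FGF2 tissue, against 12.36, 12.53 and 12.37 in PBS tissue, a difference of 0.30 ± 0.06 or 1.23-fold (adjusted p = 0.341, limma). The groups overlapped for neither gene, and MKI67 was unlike most members in that FGF2 replicate 3 was its highest array.

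SMC2, which pairs with SMC4 in condensin, nevertheless differed by only 0.07 ± 0.06, with overlapping groups. NCAPG, a condensin I subunit, differed by 0.24 ± 0.10, just past the unadjusted threshold (p over 0.05), and NCAPD2, another, by 0.02 ± 0.05. TOP2A, the topoisomerase that untangles sister chromatids and the brightest gene of this role, read 13.11, 13.14 and 12.97 in FGF2 tissue, against 13.04, 12.97 and 12.99 in PBS tissue, a difference of 0.07 ± 0.05. At this TOP2A probe set, FGF2 replicate 3 was no higher than the lowest PBS array. The other TOP2A probe set, at a mean level of 12.695, gave 0.14 ± 0.06 with groups that did not overlap.

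The spindle motors and microtubule factors (5 of 6 measured, median 0.14) were all higher on average in FGF2 tissue, 3 of them at unadjusted p under 0.05. By that rule 7.77% of all genes and 10.9% of the middle-range genes were higher. KIF18A, the kinesin that damps chromosome oscillation at the equator, read 8.91, 9.06 and 8.92 in FGF2 tissue, against 8.66, 8.83 and 8.74 in PBS tissue, a difference of 0.22 ± 0.06 (adjusted p = 0.462, limma). KIF15, a kinesin that helps keep the spindle bipolar, read 11.55, 11.48 and 11.40 in FGF2 tissue, against 11.38, 11.28 and 11.34 in PBS tissue, a difference of 0.14 ± 0.05 (adjusted p = 0.521, limma). For both kinesins the groups did not overlap at the brightest probe set, although FGF2 replicate 3 was close to PBS replicate 1 for KIF15. The next brightest KIF15 probe set gave 0.22 and the one after it -0.015, both with overlapping groups.

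KIF2C, a microtubule depolymerase that releases faulty attachments, read 11.30, 11.20 and 11.04 in FGF2 tissue, against 10.82, 11.09 and 10.85 in PBS tissue, a difference of 0.26 ± 0.10 (adjusted p = 0.554, limma). Here FGF2 replicate 3 lay below PBS replicate 2. KIF11, the motor that pushes the spindle poles apart, differed by 0.08 ± 0.04, with groups that did not overlap at its brightest probe set. The other KIF11 probe set, at a mean level of 10.53, gave 0.03 ± 0.08 with overlapping groups. TPX2, which nucleates spindle microtubules and activates Aurora A, was the brightest gene of this role and read 12.69, 12.82 and 12.51 in FGF2 tissue, against 12.57, 12.53 and 12.61 in PBS tissue, a difference of 0.11 ± 0.08. TPX2 was highest in FGF2 replicates 1 and 2 and lowest in FGF2 replicate 3.

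The central spindle and cytokinesis genes were measured in full, 6 of 6, and had a median of 0.18. All 6 were higher on average in FGF2 tissue and 3 of them at unadjusted p under 0.05, beside 7.77% of all genes and 10.9% of the middle-range genes. PRC1, which bundles the antiparallel microtubules of the central spindle, read 9.75, 9.89 and 9.85 in FGF2 tissue, against 9.43, 9.69 and 9.62 in PBS tissue, a difference of 0.26 ± 0.08 (adjusted p = 0.479, limma). KIF23, the kinesin of the centralspindlin complex, read 12.03, 12.15 and 12.01 in FGF2 tissue, against 11.90, 11.94 and 11.98 in PBS tissue, a difference of 0.12 ± 0.05 (adjusted p = 0.556, limma). Every FGF2 array of PRC1, and of KIF23 at its brightest probe set, lay above every PBS array. The other KIF23 probe set, at a mean level of 9.94, gave 0.22 ± 0.09 with overlapping groups. RACGAP1, the other subunit of centralspindlin, differed by 0.19 ± 0.09, with FGF2 replicate 3 below PBS replicate 2.

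ECT2, the exchange factor that activates RhoA at the division plane, read 9.98, 10.23 and 10.05 in FGF2 tissue, against 9.65, 9.99 and 9.71 in PBS tissue, a difference of 0.31 ± 0.11 or 1.24-fold (adjusted p = 0.539, limma). FGF2 replicate 2 was the highest ECT2 array, while FGF2 replicate 1 lay at the level of PBS replicate 2. KIF20A, a kinesin that brings the passenger complex to the central spindle, differed by 0.10 ± 0.05, with FGF2 arrays that were nearly equal (SD 0.009). Its groups did not overlap at this probe set but did at the other, at a mean level of 6.15. ANLN, or anillin, the scaffold of the contractile ring, differed by 0.17 ± 0.07. For anaphase entry only CDC20, the activator of the anaphase-promoting complex, was measured of 4 members, and it read 12.92, 13.00 and 12.76 in FGF2 tissue, against 12.52, 12.85 and 12.71 in PBS tissue, a difference of 0.20 ± 0.11 with overlapping groups.

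**Figure D5:**
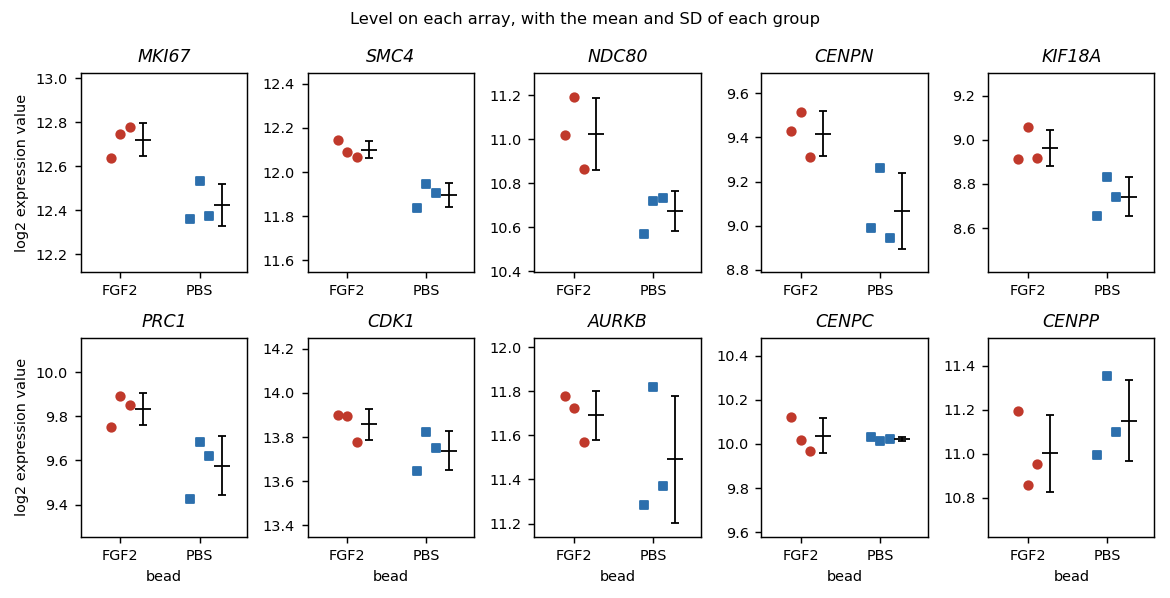
Log2 level of 10 mitosis and kinetochore genes on each array, FGF2 arrays left of PBS arrays, with the mean and SD of each group (n = 3). At the brightest probe set of each gene, drawn here, the groups do not overlap for MKI67, SMC4, NDC80, CENPN, KIF18A and PRC1, and they overlap for CDK1, AURKB, CENPC and CENPP.

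Many members had more than 1 probe set, which gave a further reading from the same RNA. The 44 members had 90 probe sets, 76 of them with a mean level over 5, and 71 of these 76 had a higher mean in FGF2 tissue. The 76 include the brightest probe sets of the 44 members, already counted above. Over the 19219 brighter probe sets of the array, those above the median level, the median difference was 0.03, and their share of positive ones was not taken. In 21 members a second probe set exceeded a mean level of 5, and 20 of the second probe sets were positive, with a median of 0.15. By the same rule 902 of 1497 middle-range genes and 2528 of 4227 of all genes had a positive second probe set, each with a median of 0.04. For CENPF the brightest probe set gave -0.05, the next 3 gave 0.28, 0.15 and 0.42, and the dimmest, at a mean level of 3.23 and so under the background level, gave 0.06. Probe sets also differed in size of difference within a gene. For NDC80 the second probe set gave 0.15, against 0.35 for the first, and for CENPN 0.04, against 0.35. ECT2 gave 0.31 and 0.53, and CENPP, whose first probe set gave -0.15, gave -0.09 with the second. KIF2C had 4 probe sets between 0.21 and 0.34.

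Of the 9 members without a probe set of their own symbol, 3 are listed in the RefSeq gene table as synonyms of a gene that the array names otherwise. The gene named CCNB1, which that table also calls CCNB2, a cyclin B, read 13.74, 13.69 and 13.56 in FGF2 tissue, against 13.43, 13.65 and 13.49 in PBS tissue, a difference of 0.14 ± 0.08. The gene named KIF4B, also called KIF4A, a chromosome-borne kinesin, differed by 0.21 ± 0.10, and the one named PTTG2, also called PTTG1, securin, by 0.12 ± 0.10. All 3 had overlapping groups. Counting them in, 44 of 47 genes were positive, with the same median of 0.17 and the same 12 at unadjusted p under 0.05.

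Other genes of mitosis, which the member list does not hold, gave a smaller median of 0.12 over 98 measured of 121. Of these, 76 were positive, 22 were higher and 2 lower at unadjusted p under 0.05, and none passed at adjusted p under 0.05. Among all genes 45.6% were positive, 7.77% higher and 4.59% lower by these rules, and among the middle-range genes 59.2%, 10.9% and 5.71%. CCNA1, FBXO5, KIFC1 and NUMA1 of this list lay under the background level of 3.57, and over the brighter probe sets only the list's median was 0.12. FOXM1, the transcription factor of many G2 and M genes, read 11.32, 11.43 and 11.30 in FGF2 tissue, against 11.05, 11.01 and 11.00 in PBS tissue, a difference of 0.33 ± 0.04 or 1.26-fold (adjusted p = 0.182, limma). FOXM1 had the smallest adjusted p of the list, its groups did not overlap, and FGF2 replicate 3 lay with the other FGF2 arrays. HJURP, the chaperone that loads the centromeric histone, differed by 0.27 ± 0.06 and NUSAP1, a spindle microtubule-binding protein, by 0.19 ± 0.04. SGO1, or shugoshin, the guardian of centromeric cohesion, differed by 0.34 ± 0.08 and MASTL, the Greatwall kinase, by 0.30 ± 0.07. NEK6, a mitotic kinase, ran the other way and read 11.78, 11.75 and 11.93 in FGF2 tissue, against 12.12, 12.01 and 12.11 in PBS tissue, a difference of -0.26 ± 0.06 (adjusted p = 0.367, limma). At the brightest probe set, every FGF2 array lay above every PBS array in the first 5 of these genes, and for NEK6 every FGF2 array lay below.

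Genes of G1 entry and cell cycle exit (31 of 40 measured) had a median of 0.10, with 24 positive. At unadjusted p under 0.05, 8 were higher and 0 lower, and none passed at adjusted p under 0.05. CDKN1A, CDKN2A, CDKN2B and CDKN2C of this list lay under the background level of 3.57. Over the brighter probe sets only, the list had a median of 0.16 and the members 0.17. Genes of the list include both drivers and inhibitors of entry, so their median gives no direction for entry itself. Their array medians were 0.10, 0.08 and 0.08 in FGF2 replicates 1 to 3, against -0.02, 0.04 and -0.02 in PBS replicates 1 to 3, so that here FGF2 replicate 3 stood with the other FGF2 arrays. CCNE1, the cyclin of S phase entry, read 8.91, 9.26 and 8.97 in FGF2 tissue, against 8.45, 8.79 and 8.46 in PBS tissue, a difference of 0.48 ± 0.14 or 1.40-fold (adjusted p = 0.457, limma). RBL1, the pocket protein p107, differed by 0.22 ± 0.04, E2F4, its E2F partner, by 0.20 ± 0.05, and MYCN, the N-Myc factor of progenitor growth, by 0.17 ± 0.05. At the brightest probe set of these 4 genes the groups did not overlap. With the probe sets of each gene averaged, CCNE1 gave 0.28, RBL1 0.11, E2F4 0.20 and MYCN 0.25. DNA replication genes (48 of 56 measured) had a median of 0.09, with 39 positive, 9 higher and 1 lower at unadjusted p under 0.05. Beside the counts of the G1 and replication lists, 45.6% of all genes were positive, 7.77% higher and 4.59% lower. For the middle-range genes these shares were 59.2%, 10.9% and 5.71%. Array medians of the replication genes followed those of the members, at 0.16, 0.14 and -0.02 in FGF2 replicates 1 to 3, against -0.10, 0.08 and 0.02 in PBS replicates 1 to 3.

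The count of 12 members at unadjusted p under 0.05 varied with single arrays, and so did the share of all 38439 probe sets that were higher by that rule, which was 5.6% with all 6 arrays. At 1 probe set a gene, as for the members, the share with all 6 arrays was larger, at 7.77% of all genes and 10.9% of the middle-range genes. Without FGF2 replicate 1 it was 7 members and 5.86% of probe sets, without FGF2 replicate 2 it was 4 and 3.36%, and without FGF2 replicate 3 it was 17 and 6.45%. Without PBS replicate 1 it was 9 members and 4.4% of probe sets, without PBS replicate 2 it was 18 and 6.11%, and without PBS replicate 3 it was 7 and 4.15%. The median over the members stayed between 0.11 and 0.22 in these 6 fits.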

How the data were processed

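Total RNA was labelled with biotin and hybridised to single-colour Affymetrix Chicken Genome arrays. The deposited values are log2 levels per probe set, made by the authors with RMA (robust multi-array averaging), a method that removes background, brings all arrays to 1 distribution and combines the probes. The software version and the background model are not given in the sources used here, and the log base was taken as 2 from the range of the values. RMA can shrink differences of dim probe sets. Scanner files were not analysed here. Precision is limited by there being 3 arrays a group.

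Of 38535 rows, 96 control probe sets were left out. Gene symbols came from the platform annotation: 27168 probe sets had a single symbol, 177 several and 11094 none. FGF2 was set against PBS with limma 3.58.1 in R 4.3.3 (lmFit and eBayes, two-sided, Benjamini-Hochberg over 38439 probe sets, threshold 0.05). The fit was tried on simulated data with independent noise and planted differences larger than those of the members. That trial does not show how well differences of the members' size are found. The labels do not say which FGF2 and PBS arrays share a day, and same-numbered arrays did not deviate together, so no block was used. A difference between days was thus not removed. Among differently numbered arrays, deviations of FGF2 replicate 3 and PBS replicate 1 had a correlation of 0.332. It was 0.209 for FGF2 replicate 1 with PBS replicate 2 and 0.172 for FGF2 replicate 2 with PBS replicate 3. The remaining pairs gave 0.032, -0.123 and -0.188. Whether any of these arrays share a day was not tested.

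The members and gene lists were chosen with earlier results of these data known, and the DNA replication list after the values were seen. Members named by rule were those at unadjusted p under 0.05, the 4 largest and 4 lowest differences and the brightest of each role, with all others named after their values were seen. Of the other mitosis genes the 6, and of the G1 genes the 4, with the smallest p were named. Alternatives were each array left out, a replicate block, quantile normalization again, median centring, brighter probe sets, a variance trend, array weights, averaging the probe sets of each gene, and no probe sets that may cross-hybridise. PBS replicate 2 and FGF2 replicate 3 were also left out together, a choice made after the values were seen.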

Additional observations from a re-analysis of the deposited data

How the results depend on the processing

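No member passed at adjusted p under 0.05 in any alternative but array weights, where 7 did (CENPI, CENPN, SMC4, MKI67, KIF18A, PRC1 and ECT2). There the median over the members was 0.10, 34 of 44 were positive, 2256 of 38439 probe sets passed at adjusted p under 0.05, FGF2 replicate 3 had a weight of 8.45, and the weights had not converged. At unadjusted p under 0.05, 12 members were higher in the main fit, beside 7.77% of all genes and 10.9% of the middle-range genes. The count at unadjusted p under 0.05 was 8 after quantile normalization again and 9 with median centring (5.09% of all probe sets higher, 3.75% lower). With single arrays left out the count ran from 4 to 18, while 3.36% to 6.45% of all probe sets were higher and 1.91% to 4.61% lower. The median over the members ran from 0.11 to 0.22 with single arrays left out. It was 0.25 without PBS replicate 2 and FGF2 replicate 3, a pair chosen after the values were seen and bound to widen the difference. The medians of the other mitosis and the G1 genes ran from 0.09 to 0.14 and from 0.08 to 0.12 with single arrays left out. The other mitosis genes had a median of 0.057 with array weights, and the G1 genes 0.16 over brighter probe sets only. Of 57 genes followed, 46 never turned sign. With array weights CCNA2 gave -0.003, TTK -0.023, INCENP -0.059, SPC25 0.267, CENPC -0.049, CENPH -0.037, CENPK -0.034, TOP2A -0.024 and TPX2 -0.054. CENPF gave 0.17 as the mean of its probe sets and CENPC -0.015 after quantile normalization again. With single arrays left out SPC25 ran from -0.149 to 0.054, CENPF from -0.13 to 0.093, CENPC from -0.028 to 0.049, CENPH from -0.011 to 0.115 and NCAPD2 from -0.022 to 0.055. Quantile normalization again moved the share of all probe sets higher and lower at unadjusted p under 0.05 to 3.86% and 4.04%, against 5.6% and 3.33% without it, with the members' median at 0.16. With the replicate number as a block, which same-numbered arrays did not bear out (correlations of their deviations -0.25, -0.002 and -0.18), 15 members were higher at unadjusted p under 0.05, beside 5.4% of all probe sets higher and 3.14% lower, and 0 passed at adjusted p under 0.05. Why these values moved was not tested.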
